A study of Mus musculus with 4 samples.

Results

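The Wnt pathway of the adult mouse ureter was described through 49 genes: 19 Wnt ligands, 10 Frizzled receptors, 5 co-receptors, 9 secreted antagonists, Axin1, Axin2 and beta-catenin, and 3 TCF/LEF factors. They were chosen by gene symbol alone, from 18193 genes named on the arrays, and are measured by 100 of 45037 probe sets. Tcf7, whose symbol the rule also covers, is not analysed here. All 4 samples form 1 group. They are ureters of adult male mice (Theiler stage 28) of the FVB/N strain carrying the SMGA/EGFP transgene, in which EGFP marks tissue that expresses smooth muscle gamma actin (Actg2). Mothers were FVB/N and fathers carried the transgene, and no other allele or treatment is given. The tube was dissected between kidney and bladder by its fluorescence, so each sample holds all the cell types of that tissue and not muscle alone. The samples were not pooled, RNA was amplified in 2 rounds, and each sample was hybridised to 1 Affymetrix MOE430 array. The labels do not say that each sample came from a separate animal, so p-values measure only the spread between these samples, here called replicates 1 to 4. The order of the replicates has no meaning.

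Wnt proteins are secreted lipid-modified ligands that bind Frizzled receptors on nearby cells. With the co-receptors Lrp5 or Lrp6, a Wnt bound to a Frizzled halts the breakdown of beta-catenin by a complex built on Axin, and beta-catenin then activates genes with TCF/LEF factors. Ror and Ryk receptors take part in beta-catenin independent Wnt signalling, and secreted proteins of the Sfrp, Dkk and Wif families hold the ligands or co-receptors in check. In the embryonic urinary tract, Wnt ligands of the epithelium act on the mesenchyme that forms the muscle and connective tissue of the ureter.

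TCF/LEF factors bind DNA at a short core motif, and RefSeq promoter windows (assembly GRCm38.p6, 250 bases before to 50 after a gene's start) were searched for CTTTGATC on both strands, with no other motif searched. A window was found for 34 of the 49 genes. The letters occurred in 2 of their 42 windows, 1 of Wnt5b and 1 of Wnt11, and in 0.938% of all 32851 windows. These windows are printed with the match in capitals, 71 bases before the start in Wnt5b (chr6:119449337-119449636, minus strand) and, on the opposite strand, 52 bases before it in Wnt11 (chr7:98834862-98835161, plus strand). The window of Axin2 (chr11:108920099-108920398, plus strand) is shown beside them because Axin2 is a widely used target gene of the pathway, and it held no match.
Wnt5b: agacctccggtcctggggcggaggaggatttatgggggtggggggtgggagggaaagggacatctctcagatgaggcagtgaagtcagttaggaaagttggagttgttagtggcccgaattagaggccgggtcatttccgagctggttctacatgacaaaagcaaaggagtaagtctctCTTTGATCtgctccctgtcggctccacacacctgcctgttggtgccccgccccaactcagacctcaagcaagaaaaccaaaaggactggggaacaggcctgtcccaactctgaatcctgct
Wnt11: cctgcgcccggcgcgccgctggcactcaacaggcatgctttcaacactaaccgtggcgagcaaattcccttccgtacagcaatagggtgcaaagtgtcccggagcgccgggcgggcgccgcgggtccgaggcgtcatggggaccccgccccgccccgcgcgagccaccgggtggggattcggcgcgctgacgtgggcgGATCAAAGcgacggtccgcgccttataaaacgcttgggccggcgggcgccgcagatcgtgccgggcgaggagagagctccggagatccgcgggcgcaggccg
Axin2: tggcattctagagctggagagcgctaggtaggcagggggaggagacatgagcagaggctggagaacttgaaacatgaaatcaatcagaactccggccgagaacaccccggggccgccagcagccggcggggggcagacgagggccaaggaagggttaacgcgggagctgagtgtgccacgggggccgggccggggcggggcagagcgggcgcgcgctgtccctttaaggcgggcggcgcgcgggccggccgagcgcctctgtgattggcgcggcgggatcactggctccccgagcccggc
A match is a description of the sequence, and of the 3 genes Wnt5b and Axin2 were above background in the ureter while Wnt11 was not.

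Levels are given as log2(intensity + 16), where the pseudocount of 16 compresses differences among dim probe sets. The probe set with the highest mean stands for its gene, and levels of different genes were not compared. Background was read on each array from 83 probe sets for olfactory, vomeronasal and taste receptors, whose 95th percentile set a threshold of 7.25, 6.99, 7.57 and 7.36 in turn for replicates 1 to 4. A gene was called above background if the mean distance of its samples from these thresholds was over 0 by limma's moderated one-sided test. The cutoff was an adjusted p (Benjamini-Hochberg, over all 45037 probe sets) of 0.05. An adjusted p printed with levels is from this test of the mean, and not of a spread, order or deviation, unless another test is named. Smooth muscle markers were above background in 10 of 10 cases and urothelial markers in 8 of 10, as the tissue's label says. Markers of other tissues also lay over the threshold. All 12 skeletal muscle markers lay over the threshold in replicate 3, against 1 to 3 in the others. Liver markers did so in 8 of 8 cases in replicate 1, 7 in replicate 3 and 1 each in replicates 2 and 4, and male reproductive tract markers in 7 of 8 cases in replicates 1 and 2, 3 in replicate 3 and 2 in replicate 4. Kidney markers did so in 1 or 2 of 9 cases, nerve markers in 3 to 5 of 6, fat markers in 1 to 3 of 6, macrophage markers in 8 to 10 of 10 and mesothelial markers in 4 or 5 of 7. The median level of fibroblast markers was 9.81 in replicate 3, against 11.62 to 12.42 elsewhere, and that of endothelial markers was 9.75 against 11.07 to 11.83. The Gapdh ratio of 3' over 5' signal, which grows as transcripts are shortened, was lower in replicate 4 (18.8) than elsewhere (31.6 to 36.9).

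**Figure D1:**
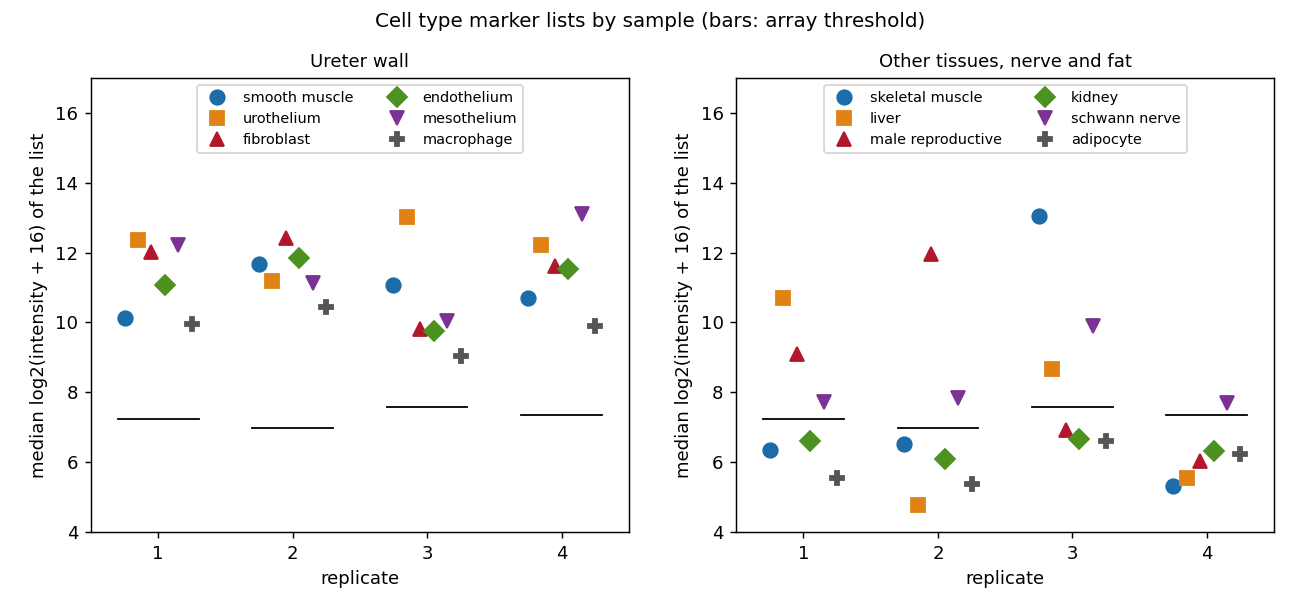
Median level, log2(intensity + 16), of each cell type marker list in the 4 replicates, with a black bar at each array's background threshold. The fibroblast and endothelial medians are lowest in replicate 3, where the skeletal muscle median is 13.04.

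The adult ureter expressed 7 Wnt ligands, 8 Frizzled receptors, the co-receptors Lrp6, Ror2 and Ryk, 5 secreted antagonists, both Axin genes, beta-catenin, Tcf7l1 and Tcf7l2. In total 28 of the 49 genes were above background, or 57.1%, next to 57.8% of all named genes, a share close to that of the array's genes in general. The share was 36.8% for ligands and 80% for Frizzled receptors, counts that were not tested against each other. Counted in each sample without a test, 34 of the 49 genes lay over the threshold in replicate 1 (66.8% of all named genes did), 38 in replicate 2 (68.5%), 32 in replicate 3 (67.4%) and 36 in replicate 4 (65.9%). Every one of the 28 genes lay over the threshold in all 4 samples. With a stricter background, the median plus 3 median absolute deviations, 18 genes were above background, and the calls of Wnt5b, Wnt6, Wnt10a, Fzd8, Sfrp1, Sfrp4, Wif1, Axin2, Tcf7l1 and Tcf7l2 were lost.

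**Figure D2:**
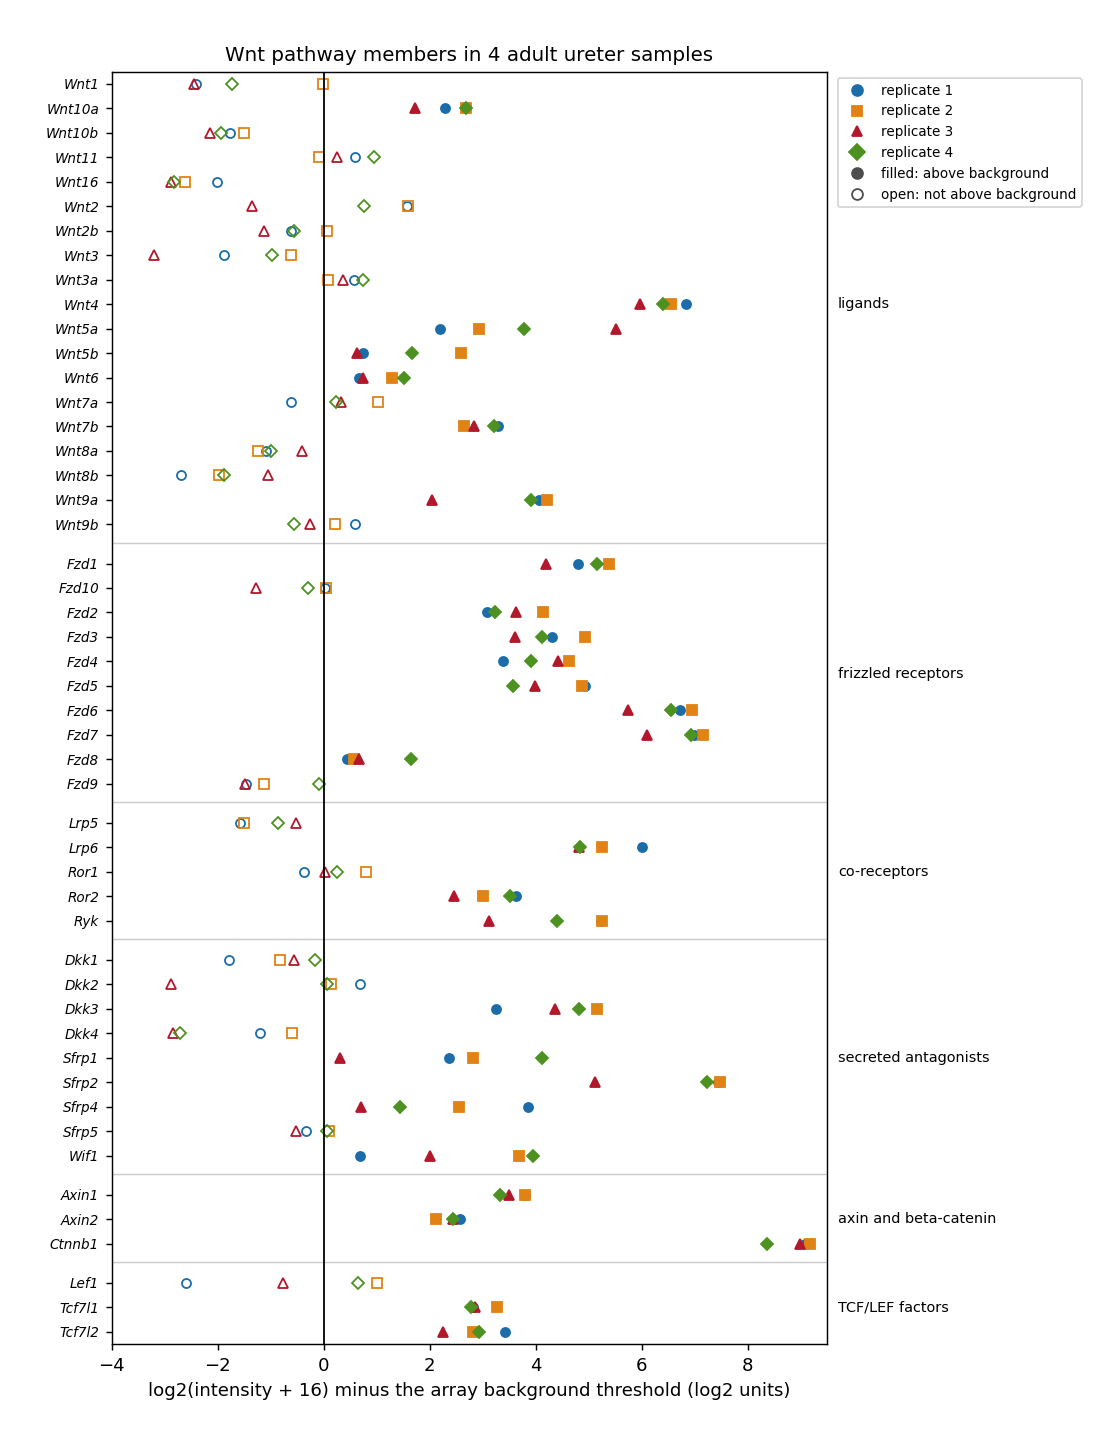
Level of each of the 49 genes minus the array's background threshold, in log2 units, grouped by role, with 1 point per replicate. Filled points belong to the 28 genes above background, and all of their points lie to the right of 0.

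Among the ligands, Wnt4, Wnt5a, Wnt5b, Wnt6, Wnt7b, Wnt9a and Wnt10a were above background. Wnt4, a ligand known for its part in kidney tubule formation, had levels of 14.09, 13.55, 13.53 and 13.76 in replicates 1 to 4. Its mean lay 6.44 log2 units above the thresholds (adjusted p = 3.28e-08), with an SD between samples of 0.26 (n = 4, as for every SD here). The second Wnt4 probe set, also above background, had 13.04, 12.37, 11.97 and 13.34, an SD of 0.62, with replicate 4 highest in place of replicate 1 and replicate 3 again lowest. Wnt7b, an epithelial ligand, had 10.54, 9.64, 10.41 and 10.58 (adjusted p = 4.96e-06), with replicate 2 lowest. Wnt10a had 9.54, 9.67, 9.28 and 10.05 (adjusted p = 5.84e-05), with an SD of 0.32.

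Wnt5a, a ligand best known for beta-catenin independent signalling, differed between samples more than any other ligand above background. Its levels were 9.43, 9.92, 13.09 and 11.14 in replicates 1 to 4, from deposited intensities of 676, 954, 8684 and 2247. Replicate 3 exceeded the mean of the other samples by 2.92 log2 units, and the mean of all 4 was above background (10.90 ± 1.63, adjusted p = 0.000167). The other 3 Wnt5a probe sets were not above background by the test of the mean, but each was also highest in replicate 3 and next highest in replicate 4. They had 10.76, 10.14 and 7.61 in replicate 3, against 5.42, 4.15 and 5.35 in replicate 1. Replicate 3 is the sample with skeletal muscle markers, whose summed intensity was 248600 there, against 838 to 934 elsewhere, and all 12 lay over the threshold. Other markers were high there too. Fat markers had a summed intensity of 43730, with 3 of 6 over the threshold, against 1892 to 3033 and 1 or 2 elsewhere. Fabp4 was at 14.93 and Pparg at 13.58, while Lep, Cidec and Retn stayed under the threshold. The nerve median was 9.90, against 7.71 to 7.84, though the summed intensity of that list was lowest there. The male tract marker Pbsn was at 15.41, against 8.80 to 9.42, with 3 of 8 of its list over the threshold. Liver markers lay over it in 7 of 8 cases, fewer than in replicate 1 only. The urothelial median was 13.02, against 11.19 to 12.37, and 10 of 10 of its markers lay over the threshold, against 8 elsewhere, with Upk3a at 14.91 (4.55 to 7.03 elsewhere) and Krt20 at 11.69 (6.07 to 7.09). The part of any of these in the Wnt5a level was not tested.

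Wnt9a ran the other way, with 11.32, 11.20 and 11.28 in replicates 1, 2 and 4 and 9.61 in replicate 3. It was above background (10.85 ± 0.83, adjusted p = 3.36e-05), and the deviation of replicate 3 from the mean of the others was -1.65 log2 units. The second Wnt9a probe set, not above background, was instead highest in replicate 3, with 5.66, 6.59, 6.77 and 6.41. Replicate 3 had low fibroblast and endothelial and high skeletal muscle markers, and the other marker differences given above for Wnt5a. The part of any of these in the Wnt9a level was not tested. The paralog of Wnt5a, Wnt5b, had 7.996, 9.58, 8.19 and 9.02 (adjusted p = 0.00908), highest in replicate 2. Its probe sets can all match several transcripts, and its call was lost at the 99th percentile of the background (adjusted p = 0.063). Wnt6 had 7.91, 8.28, 8.31 and 8.87 (adjusted p = 0.0107), close to the thresholds. Without replicate 4 the Wnt6 call was lost (adjusted p = 0.0559), and so it was at the 99th percentile (0.166).

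The other 12 ligands, Wnt1, Wnt2, Wnt2b, Wnt3, Wnt3a, Wnt7a, Wnt8a, Wnt8b, Wnt9b, Wnt10b, Wnt11 and Wnt16, were not above background. Wnt2, named for its values after they were seen, had 8.82, 8.57, 6.21 and 8.12, so that replicate 3 alone lay under its threshold. Its adjusted p was 0.278 with all samples and 0.00702 without replicate 3, when it passed. Wnt3a lay over the threshold in all 4 samples, by at most 0.73 log2 units, and did not pass the test (adjusted p = 0.204). Wnt11, a ligand of the ureteric bud tip in the embryo, had 7.85, 6.91, 7.83 and 8.32 (adjusted p = 0.239), and Wnt7a had 6.63, 8.02, 7.90 and 7.60 (adjusted p = 0.547). Wnt9b, the ligand of the embryonic ureteric duct, had 7.83, 7.21, 7.31 and 6.80, on both sides of the thresholds (adjusted p = 0.991). Wnt1, Wnt3, Wnt8a, Wnt8b, Wnt10b and Wnt16 were under the threshold in every sample, and Wnt2b was over it in 1.

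Frizzled receptors, the seven-pass membrane proteins that bind Wnt ligands, were above background for Fzd1 to Fzd8. Fzd7 had 14.24, 14.15, 13.67 and 14.30, and its mean lay 6.80 log2 units above the thresholds (adjusted p = 3.62e-08). Fzd6 had 13.98, 13.93, 13.31 and 13.92 (adjusted p = 5.82e-08). In both genes the samples lay within 1 log2 unit of each other and replicate 3 was lowest. Fzd1 had 12.04, 12.38, 11.76 and 12.51 (adjusted p = 3.56e-07), and Fzd3, a receptor known from the guidance of axons, had 11.55, 11.92, 11.18 and 11.49 (adjusted p = 1.03e-06). Replicate 3 was again lowest in both on these probe sets, and the SDs were 0.34 and 0.30. The 2 other Fzd3 probe sets above background varied more and in different orders. One had 10.94, 10.26, 9.701 and 11.25, also lowest in replicate 3 (SD 0.69), and the other 9.67, 10.69, 10.20 and 8.85, lowest in replicate 4 (SD 0.79).

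Fzd4, also a receptor for the ligand Norrin in blood vessels, had 10.62, 11.61, 11.996 and 11.26 (adjusted p = 1.47e-06). It was highest in replicate 3, in which endothelial markers were lowest, and their part was not tested. Fzd5 had 12.17, 11.87, 11.55 and 10.93 (adjusted p = 1.64e-06), lowest in replicate 4. Fzd2 had 10.33, 11.13, 11.20 and 10.60 by its highest probe set (adjusted p = 2.90e-06). All 3 Fzd2 probe sets were above background and all were highest in replicate 3, the other ones with 10.36 and 10.18 there against 7.70 to 9.04 elsewhere. Fzd8 had 7.70, 7.57, 8.23 and 9.001 and passed narrowly (adjusted p = 0.042). Its call was lost when any 1 sample was left out, with adjusted p of 0.0588, 0.0646, 0.059 and 0.193 without replicates 1 to 4, and with a pseudocount of 64 (0.0502). Fzd9 and Fzd10 were not above background, at 6.25 ± 0.70 and 6.91 ± 0.43.

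Of the co-receptors, Lrp6 was above background and its relative Lrp5 was not. Lrp6, which binds Axin once a Wnt has joined it to a Frizzled, had 13.26, 12.23, 12.38 and 12.20 (adjusted p = 2.68e-07), with replicate 1 highest at a deviation of 0.99. Lrp5 had 5.67, 5.49, 7.04 and 6.50 on its only probe set, under the threshold in every sample. Ror2, a receptor tyrosine kinase-like receptor for Wnt5a, had 10.88, 9.99, 10.03 and 10.88 (adjusted p = 8.54e-06). Ror1 had 6.88, 7.79, 7.59 and 7.61 and did not pass (adjusted p = 0.636).

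Ryk, a Wnt receptor with an inactive kinase domain, was measured above background by 3 probe sets that ordered the samples differently. The highest had 12.48, 12.24, 10.68 and 11.76 (adjusted p = 6.27e-06), with replicate 3 lowest. The other ones had 11.22 and 10.15 in replicate 3, the second highest and the highest of their 4 values. The low value of replicate 3 was seen on 1 of the 3 probe sets. Over the 9 genes with at least 2 probe sets above background, 3 had the same highest sample on all of them and 4 the same lowest, or 33.3% and 44.4%, next to 31.1% and 29.3% of 4033 such genes over the whole array.

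**Figure D3:**
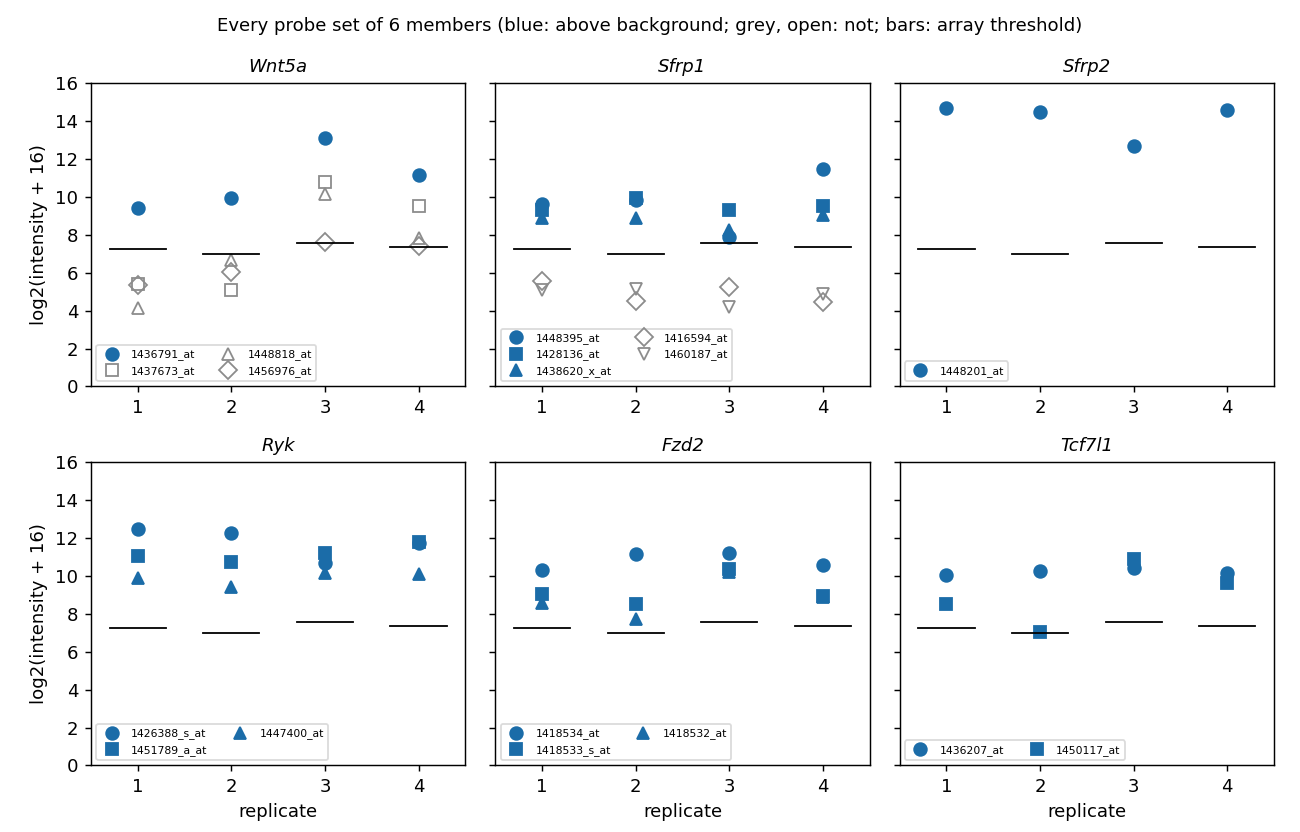
Level of every probe set of 6 genes, log2(intensity + 16), in the 4 replicates, with a black bar at each array's background threshold. The 4 Wnt5a probe sets are all highest in replicate 3, whereas the probe sets of Sfrp1 and Ryk order the samples differently.

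The secreted antagonists Sfrp1, Sfrp2, Sfrp4, Dkk3 and Wif1 were above background, with SDs between samples of 0.80 to 1.48 on the probe sets that stand for them. Other probe sets above background had smaller SDs, 0.29 and 0.34 for Sfrp1 and 0.63 for Dkk3. Sfrp2, a soluble Frizzled-related protein of fibroblasts, had 14.69, 14.47 and 14.60 in replicates 1, 2 and 4 and 12.69 in replicate 3. The deviation of replicate 3 from the others, which lay close together, was -1.90 log2 units, with an intensity of 6586 against 22610 to 26400. The gene was above background on its only probe set (14.11 ± 0.95, adjusted p = 6.70e-07). Fibroblast markers had a summed intensity of 22670 in replicate 3, against 90900 to 129200 elsewhere. In replicate 3 9 of 10 lay over the threshold, elsewhere all 10, and none was at 0, and their part in the Sfrp2 level was not tested. In such bulk samples fewer cells of a type and less RNA per cell cannot be told apart.

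Sfrp4 had 11.10, 9.55, 8.26 and 8.81 (adjusted p = 0.0036), highest in replicate 1 and lowest in replicate 3. Sfrp1 had 9.61, 9.81, 7.87 and 11.49 by its highest probe set (adjusted p = 0.00345), a range of 3.61 log2 units from replicate 3 to replicate 4. The range was far smaller by the 2 other Sfrp1 probe sets above background. These had 9.32, 9.92, 9.30 and 9.53 and 8.87, 8.89, 8.27 and 9.04, both lowest in replicate 3, while the remaining 2 probe sets were not above background.

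Wif1, which binds Wnt ligands directly, had 7.94, 10.67, 9.58 and 11.31 (9.87 ± 1.47, adjusted p = 0.0019), with replicate 1 lowest, at a deviation of -2.58 log2 units. Its single probe set can match several transcripts. Dkk3, a divergent Dickkopf family member, had 10.50, 12.15, 11.94 and 12.17 (adjusted p = 3.21e-06), and replicate 1 was lowest, at a deviation of -1.59. The second Dkk3 probe set was also lowest in replicate 1, at 8.88 against 9.07 to 10.22. Replicate 1 also had all 8 liver markers over the threshold and the lowest smooth muscle median (10.13, against 10.70 to 11.66), and the part of either in these values was not tested. Dkk1, Dkk2 and Dkk4, the members of the family that act on Lrp5 and Lrp6, and Sfrp5 were not above background. Dkk2 had 7.93, 7.14, 4.68 and 7.42, over the threshold in 3 samples, with a deviation of -2.81 in replicate 3. Dkk1 and Dkk4 were under the threshold in every sample.

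Beta-catenin and both Axin genes were above background, with SDs between samples of 0.19 to 0.40 on the probe sets that stand for them. Ctnnb1, the gene of beta-catenin, which also joins cadherins to actin at cell junctions, had 16.33, 16.17, 16.56 and 15.72 (adjusted p = 1.09e-08), highest in replicate 3 and lowest in replicate 4. Its 2 other probe sets above background were instead highest in replicate 4, with 12.32, 13.10, 12.50 and 13.66 (SD 0.61) and 8.93, 7.81, 8.56 and 9.31 (SD 0.64). Axin1, the scaffold of the complex that degrades beta-catenin, had 11.05, 10.78, 11.07 and 10.69 (10.90 ± 0.19, adjusted p = 9.75e-07). Axin2, the scaffold whose gene is itself switched on by beta-catenin, had 9.82, 9.11, 10.005 and 9.80 (9.69 ± 0.40, adjusted p = 2.18e-05). The second probe set of each Axin gene was not above background. Replicate 2 had the lowest Axin2 level, at a deviation of -0.77. The spread of Axin2 did not pass an F test against limma's prior variance (adjusted p = 0.996).

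TCF/LEF factors, which carry the signal to DNA, were represented by Tcf7l1 and Tcf7l2. Tcf7l1, often a repressor of Wnt targets, had 10.06, 10.26, 10.43 and 10.13 (adjusted p = 4.71e-06), with an SD of 0.16. Its second probe set, also above background, had 8.52, 7.03, 10.88 and 9.64, so that replicate 3 was highest on both but the range was 0.37 log2 units on the former and 3.86 on the latter. Tcf7l2 had 10.67, 9.81, 9.83 and 10.29 (adjusted p = 1.40e-05) by 1 of 4 probe sets. Lef1 was not above background, with 4.64, 7.99, 6.81 and 8.01, over the threshold in replicates 2 and 4 only.

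In 18 of the 32 genes with at least 2 probe sets, some passed and others did not, next to 51.7% of all such genes.

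The spread between the 4 samples was tested against limma's trended prior variance for probe sets of the same level. None of the 42 probe sets of these genes above background passed (lowest adjusted p = 0.624), nor did any of 18414 probe sets over the array (0%). At an unadjusted p under 0.05 there were 5 of the 42 (11.9%), next to 6.28% of all. They were the probe sets that stand for Wnt5a, Sfrp2, Wif1 and Sfrp1 and the second probe set of Tcf7l1. Probe sets not above background were not tested for spread, among them Wnt5a probe sets with SDs of 2.88 and 2.49. The median SD was 0.47 for the 28 genes and 0.41 for all genes above background. Differences between single samples are given here as descriptions, with no call.

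Over the 28 genes the median deviation of replicate 3 was -0.33 log2 units, with 10 of 28 higher than the mean of the other samples. All genes above background had a median of -0.05 there, and 47.4% of them were higher than the mean of the other samples. The medians of replicates 1, 2 and 4 were 0.18, 0.12 and 0.23, next to 0.03, 0.03 and 0.05 over all genes. With the mean over all probe sets of each gene they were -0.10, -0.10, -0.13 and 0.35 in replicates 1 to 4, so that replicates 1 and 2 changed sign. Without replicate 3 they were 0.06, -0.09 and 0.04 in replicates 1, 2 and 4. Of the 28 genes 11 were lowest in replicate 3 (39.3%, next to 34.3% of all genes above background). These were Wnt4, Wnt9a, Wnt10a, Fzd1, Fzd3, Fzd6, Fzd7, Ryk, Sfrp1, Sfrp2 and Sfrp4. Another 7 were highest there (25%, next to 27.55% of all genes above background), namely Wnt5a, Fzd2, Fzd4, Axin1, Axin2, Ctnnb1 and Tcf7l1. After quantile normalization of the arrays 14 genes were lowest and 5 highest in replicate 3. The share over all genes was not counted after that normalization, so these counts cannot be read as particular to the 28 genes. With it, Axin1 and Axin2 were highest in replicate 1 and Wnt4 lowest in replicate 2.

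**Figure D4:**
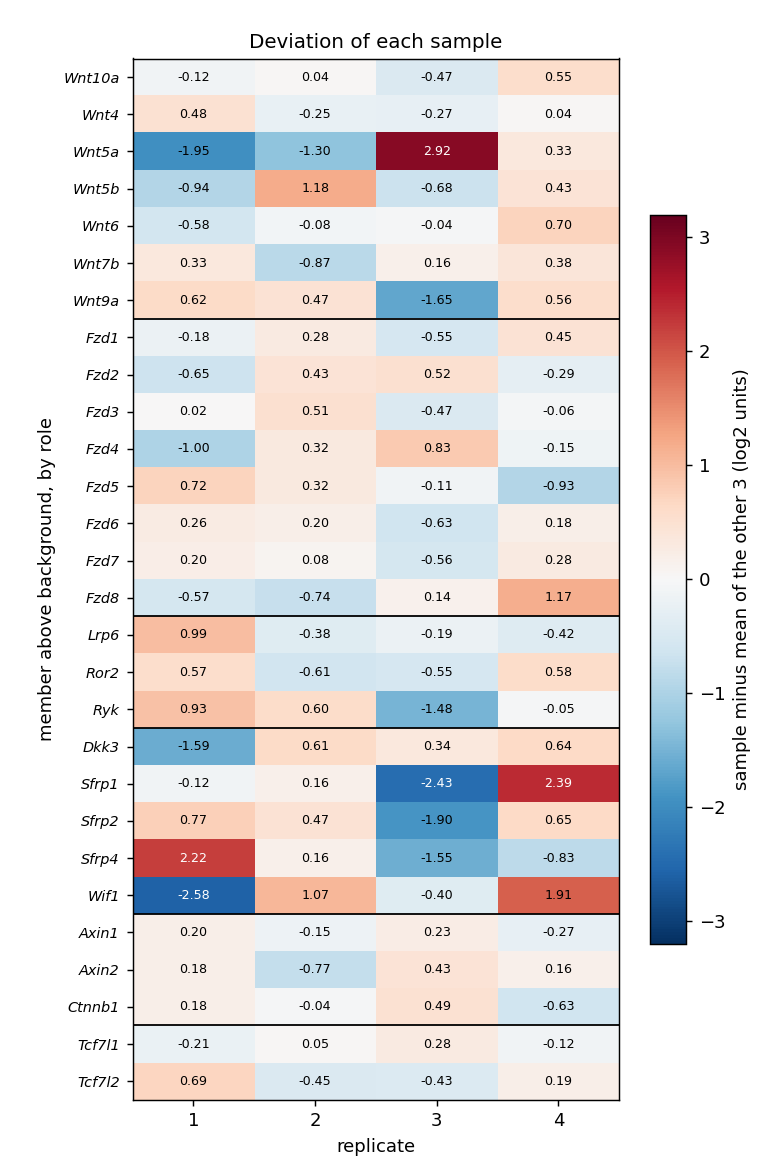
Level of each replicate minus the mean of the other 3 samples, in log2 units, for the 28 genes above background in order of role, with red for higher and blue for lower. The strongest colours are those of Wnt5a and Sfrp1 in replicate 3, Sfrp1 in replicate 4, and Sfrp4 and Wif1 in replicate 1.

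Beyond these 49 genes, 93 other genes of the pathway were measured from lists written by function, and 63 were above background (67.7%, next to 57.8% of all named genes, which is also the background for each list here). In a list of 8 genes for the export of Wnt proteins and their handling outside the cell, 5 passed, namely Porcn, Wls, Tinagl1, Gpc4 and Sdc1. The count is therefore not one of export genes alone. Porcn, the enzyme that attaches the lipid, was at 8.99 ± 0.61, and Wls, the carrier of Wnt to the cell surface, at 13.19 ± 0.56. Notum, an enzyme that removes the lipid, did not pass (7.69 ± 0.52). Of 9 genes of the R-spondin system, which controls the number of Frizzled receptors, 2 passed. These were the receptor Lgr4 at 13.15 ± 0.53 and the ubiquitin ligase Znrf3 at 10.37 ± 0.39, while Rspo1, Rspo2, Rspo3 and Rspo4, the ligands, were not above background. Of 11 further antagonists 4 passed, including Kremen1, a receptor for Dickkopf proteins, at 10.91 ± 0.23. Frzb, the Sfrp family member listed here, did not pass (7.84 ± 2.16).

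Inside the cell, the genes of the beta-catenin destruction complex passed in 11 of 12 cases, with Apc at 13.64 ± 0.26, Gsk3a at 11.45 ± 0.40 and Gsk3b at 12.28 ± 0.60, and Apc2 as the exception. Dishevelled genes and their regulators passed in 6 of 10 cases, Dvl1 at 14.85 ± 0.27 and Dvl2 at 8.22 ± 0.37, while Dvl3 did not (4.81 ± 0.29). Nuclear cofactors passed in 14 of 15 cases, with Bcl9 at 9.82 ± 0.54, Bcl9l at 8.94 ± 0.48 and Pygo2 at 11.57 ± 0.39. Genes of planar cell polarity and beta-catenin independent signalling passed in 11 of 15, with Vangl1 at 12.28 ± 0.57, Vangl2 at 9.81 ± 0.26 and Celsr1 at 11.40 ± 1.25. Of 18 genes listed as Wnt targets in some tissue 11 passed, including Myc at 12.25 ± 0.36, Ccnd1 at 13.90 ± 0.30 and Cd44 at 12.19 ± 1.21. The other 7, Sp5, Lgr5, Nkd1, Notum, Rnf43, Fgf18 and Fosl1, were not above background.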

How the data were processed

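Per the submitters' processing notes the arrays were processed with GCOS, with version and algorithm not stated. Each probe set has 1 intensity per array in the table the authors deposited, on a linear scale. Leaving out the highest and lowest 2%, the mean was 1500 in all 4 columns, so a scaling per array had been applied, and no further one was added. The 64 control probe sets were left out, and 45037 tested. Of these 34945 had 1 symbol in the platform's annotation, 932 several and 9160 none.

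Levels were log2(intensity + 16). limma 3.58.1 in R 4.3.3 (lmFit, then eBayes with trend and robust) gave the test against background, and a gene passed if any of its probe sets did. None of the 83 chemosensory probe sets did (0). Spread was an F test with 3 and 5.25 degrees of freedom on probe sets above background. Both were tested on simulated data. Precision is limited by the 4 arrays.

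Genes and lists were chosen with earlier results of these data known. The rule named every member, gave each sample's level for those above background and for others with a sample 2 log2 units over the threshold (0 genes), and named up to the first 4 measured genes of each pathway list. Values per sample of members not above background, and other pathway genes, were added after they were seen. No single-symbol probe set was found for 4 of the pathway genes and 8 of the marker genes written, which are not analysed here. Alternatives were pseudocounts of 1 and 64, quantile normalization, a background at the 99th percentile, another of the median plus 3 median absolute deviations, no test, limma without trend, other choices of probe sets and leaving out samples.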

Additional observations from a re-analysis of the deposited data

Results flagged for a closer look

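In 5 of the 49 genes (10.2%, next to 6.85% of all 18193 named genes) the gap between 1 sample and the nearest other one, divided by the range of all 4, exceeded Dixon's 95% critical value, which chance exceeds in about 1 in 20 groups. Wnt9a (0.934), Fzd6 (0.91) and Sfrp2 (0.888) were low in replicate 3, with 9.61 against 11.20 to 11.32, 13.31 against 13.92 to 13.98, and 12.69 against 14.47 to 14.69. Dkk3 (0.863) was low in replicate 1, at 10.50 against 11.94 to 12.17. Lrp6 (0.836) was high in replicate 1, at 13.26 against 12.20 to 12.38. These values are those of the probe set that stands for each gene. The other probe sets of Wnt9a, Fzd6 and Lrp6 were not above background. In none of them was the sample named here lowest (Wnt9a, Fzd6) or highest (Lrp6). The second Dkk3 probe set, above background, was also lowest in replicate 1.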

How the results depend on the processing

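No paired analysis was possible because all samples belong to 1 group. The count of 28 genes above background was 25 to 29 under every alternative but a stricter background (median plus 3 median absolute deviations). These counts do not all have the same base. Without probe sets matching more than 1 transcript it was 25 of 44 measured genes, next to 52.99% of all named genes still measured. With dim probe sets left out it was 28 of 33, next to 89.81%. Under the other alternatives, the stricter background aside, 53.87% to 58.49% of all named genes passed. The count for the pathway was 26 to 28 when 1 sample was left out and 28 without replicates 1 and 3, an alternative chosen after seeing the data. With the stricter background, over which 39.6% of all named genes passed, the counts were 18 in all, 4 ligands, 2 antagonists and 0 TCF/LEF factors. Of the other pathway genes, 3 passed in the list for Wnt export and handling, 3 for Dishevelled and 9 for nuclear cofactors. Fzd8, Wnt5b and Wnt6 then lay under the thresholds on average (-1.26, -1.56 and -1.04 log2 units). In all, 18 of the 28 genes kept their call in every alternative in which they could be measured, and 19 of the other 21 stayed without one. The exceptions were Wnt2, which passed without replicate 3 and without replicates 1 and 3, and Wnt3a, which passed when all 4 samples over the threshold was enough. In the F test of spread 0 of the members' probe sets passed under each alternative run for it. Over the whole array 7 probe sets passed without replicate 2, 4 without replicate 3 and 0 in the other settings. With so few passing anywhere, the count of 0 says little about these genes in particular. With the mean over all probe sets of a gene the median deviations of replicates 1 to 4 were -0.10, -0.10, -0.13 and 0.35, in place of 0.18, 0.12, -0.33 and 0.23, and without replicate 3 those of replicates 1, 2 and 4 were 0.06, -0.09 and 0.04. Ctnnb1, Wif1, Wnt3, Wnt5b and Wnt10b were not measured when probe sets matching more than 1 transcript were left out, since they have no others. The 3' to 5' ratios of Actb ran from 4.43 to 19.8, a limit for probe sets far from a transcript's 3' end.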

Other observations

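Several other pathway genes, named after their values were seen, differed between samples by more than 2 log2 units. Frzb, a secreted Frizzled-related protein, had 6.83, 5.78, 10.79 and 7.99 in replicates 1 to 4, Shisa2, which holds Frizzled receptors inside the cell, had 5.97, 7.84, 10.29 and 4.39, and Sp5, a target gene, had 6.41, 6.43, 9.01 and 7.22. None of these 3 genes was above background. They are a selection, and others with such a range, among them Gpc3, Rspo2, Rspo3, Prickle2 and Cd44, are not listed here. Frzb, Shisa2 and Sp5 were highest in replicate 3, as Wnt5a was. Igfbp4, a secreted protein that can bind Frizzled and Lrp6, had 12.61 there and 14.78 to 15.30 in the others, and Celsr1 had 9.63 against 11.45 to 12.32.

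Apcdd1, a membrane antagonist, had 8.77, 10.76, 8.44 and 11.43, and Nkd2, an inhibitor of Dishevelled, had 6.63, 9.56, 6.31 and 9.15. In both, and in Wif1 and Lef1, replicates 2 and 4 were higher than replicates 1 and 3. Nkd2 and Lef1 were not above background. Nkd1, also not above background, had 6.15, 8.96, 8.36 and 8.44, the same order but with replicates 3 and 4 close together. These genes were named after their values were seen, and the share of all genes with this order was not counted. Liver markers split the samples in the opposite direction, with 8 and 7 of 8 over the threshold in replicates 1 and 3 and 1 each in replicates 2 and 4. No test was made of this pattern or of the part of liver markers in it.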
